A study of Mus musculus with 16 samples.

Results

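The 9 genes described here encode complement component 4 (C4b and its near-identical paralog C4a) and a selected set of complement activation components and receptors (C3, Cfb, C1qa, C1qb, C1qc, C3ar1 and C5ar1). They were followed in mouse glomerular extracts over a course of nephrotoxic serum nephritis, in wild type mice and in mice lacking oestrogen receptor alpha. Each gene was represented by its probeset with exactly 1 gene symbol and, where there were several, the one with the highest mean over 16 arrays. By this rule 8 of the 9 genes were measured, each by 1 probeset, of 30142 genes in all, and C3 was not analysed here. The set was chosen with C4b and C4a already seen to differ between the genotypes, so their genotype difference is given as a description with no test.

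Complement is a cascade of plasma proteins that marks targets for uptake and lysis. In the classical pathway C1q, a hexamer of 3 kinds of chain, binds antibody on a surface, and the attached proteases C1r and C1s cleave C4 and then C2 to form an enzyme that cleaves C3. In the alternative pathway factor B supplies the protease of the corresponding enzyme, and the small fragments C3a and C5a act on leukocytes through the receptors C3aR1 and C5aR1. Most plasma complement comes from the liver, but kidney tubule cells, glomerular cells and infiltrating macrophages transcribe complement genes as well. Antibody bound to the glomerular basement membrane can activate complement in this model.

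The 16 arrays came from 16 female mice, 1 array for each of 2 mice in 8 groups. Wild type mice were C57Bl/6, and the knockout mice, B6.ERαKO, lacked the receptor on the same background. In each genotype 1 group was untreated and the other groups were taken 18 hours, 6 days or 2 weeks after an intraperitoneal injection of sheep nephrotoxic serum at 8 µl per g of body weight. RNA came from glomerular extracts of kidney cortex, and no separate control serum group was used here. Values are the deposited log2 values. They reached 19.93, above what a plain log2 of a 16-bit scanner signal can reach, so an unstated transformation is present, and a difference in deposited log2 units is not a fold of RNA.

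Array medians lay between 5.57 and 5.9. Esr1, the gene for the deleted receptor, was not lower in knockout, with a wild type mean of 6.90 ± 0.35 and a knockout mean of 7.44 ± 0.18 (SD over 8 arrays each), and the part of the gene its probeset covers is unknown. The array labelled wild type 18 hours replicate 2 had a mean of 15.79 over 9 genes with male-biased expression in mouse kidney, against 7.80 to 9.26 in the other wild type arrays. The array labelled knockout 18 hours replicate 2 had a mean of 7.60, against 11.87 to 16.28 in the other knockout arrays. Both therefore resembled the genotype opposite to their label, and both were kept as labelled. In the array labelled knockout 2 weeks replicate 1 the tubule injury gene Havcr1 stood at 7.17, against 12.77 in replicate 2. The extracts held tubule as well as glomerular RNA: the mean of 7 podocyte markers lay between 9.17 and 11.21 and that of 8 proximal tubule markers between 13.58 and 16.37. In such bulk samples fewer cells of a type and less RNA per cell cannot be told apart. Nothing in the labels beyond mice per group describes pooling, and p-values measure the spread between these arrays.

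The level of C4b, the gene for the C4 protein that the classical and lectin pathways cleave, was highest in knockout glomerular extracts 6 days after serum. In wild type it stood at 6.14 and 6.27 in the untreated arrays, 6.20 and 7.09 at 18 hours, 6.08 and 6.89 at 6 days, and 7.42 and 7.19 at 2 weeks. In knockout it stood at 6.96 and 7.30 untreated, 6.97 and 6.36 at 18 hours, 9.87 and 10.52 at 6 days, and 8.03 and 8.17 at 2 weeks. The knockout 6-day arrays were the highest of all 16 and the knockout 2-week arrays came next, above every wild type array. At 18 hours the genotypes overlapped. There the wild type array with the higher value (7.09) and the knockout array with the lower value (6.36) were the replicate 2 arrays that went against their labels.

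C4a, which the RefSeq reference lists as a transcribed pseudogene and whose product is known in mice as sex-limited protein, made under androgen control in some strains, had the same order of groups at a smaller scale. Its values in wild type were 5.70 and 5.80 untreated, 5.73 and 6.21 at 18 hours, 5.76 and 6.05 at 6 days, and 6.34 and 6.57 at 2 weeks. In knockout they were 6.22 and 6.29 untreated, 6.21 and 5.85 at 18 hours, 7.91 and 7.81 at 6 days, and 7.03 and 6.62 at 2 weeks. Both knockout 6-day arrays again stood above all others, and the genotypes did not overlap when untreated, at 6 days or at 2 weeks.

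**Figure D1:**
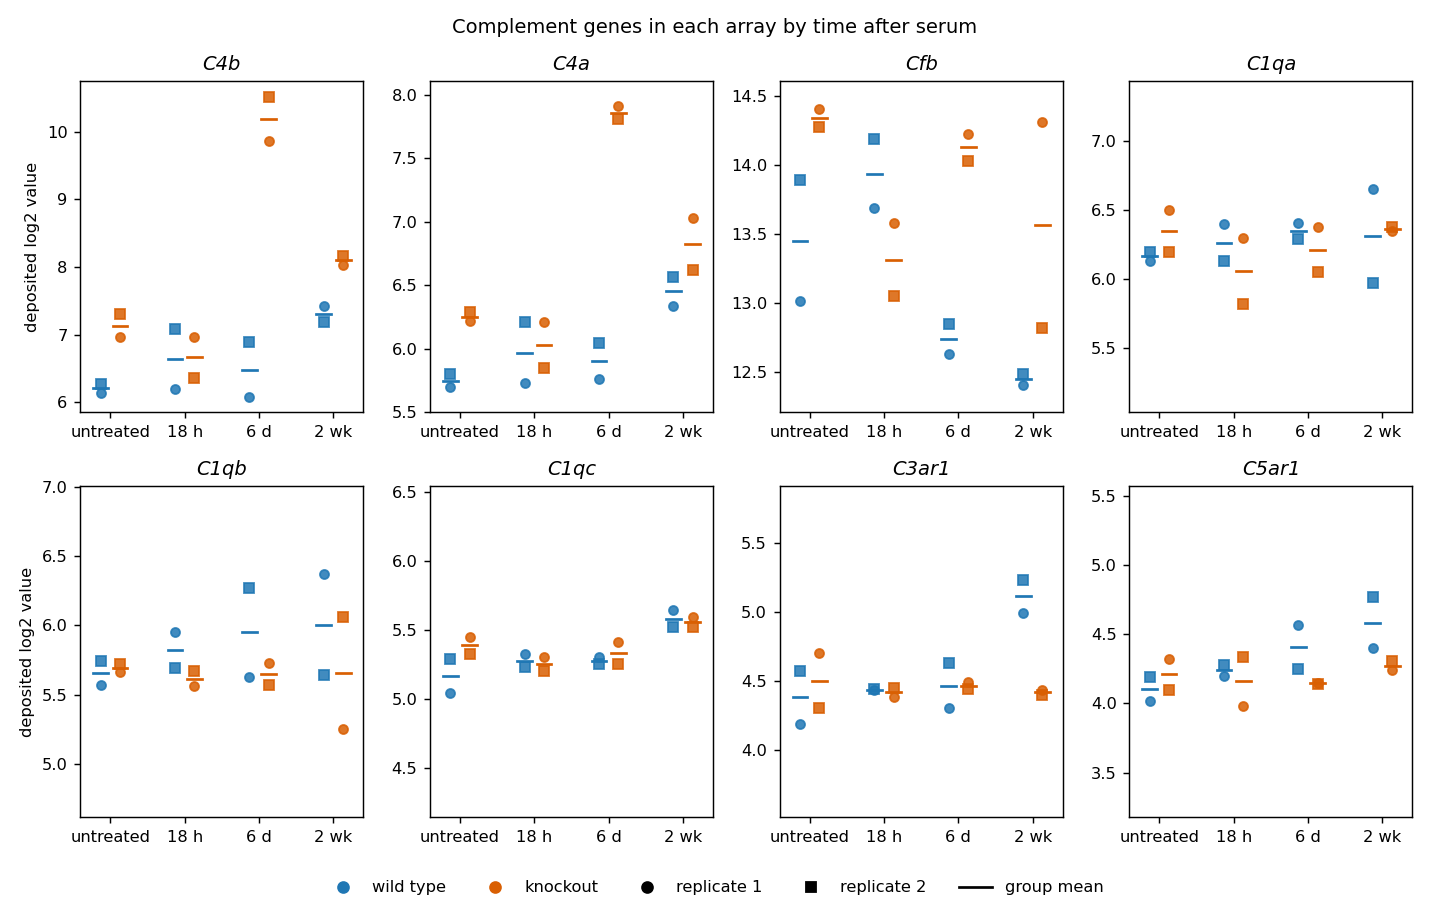
The deposited log2 value (y axis) of the 8 measured genes in each array, by time after serum (x axis), with wild type in blue, knockout in orange, circles and squares for replicates 1 and 2, and a bar for each group mean (n = 2). The knockout 6-day arrays stand apart for C4b (9.87 and 10.52) and C4a (7.91 and 7.81), and the wild type 2-week arrays for C3ar1 (4.99 and 5.23).

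Because these 2 genes were chosen for it, the knockout minus wild type difference is given as values alone. For C4b it was 0.93 untreated, 3.71 at 6 days, 0.80 at 2 weeks and 1.36 averaged over the 4 times. For C4a it was 0.50, 1.95, 0.37 and 0.72. The members were chosen from the 6-day comparison, in which 2 genes (0.00664% of all tested) passed an adjusted p under 0.05, 0 without wild type 6 days replicate 1 or knockout 6 days replicate 2 and 222 without knockout 2 weeks replicate 1 and both 18-hour replicate 2 arrays. Nothing is read from that count. Non-overlap of 2 arrays with 2 is common: knockout arrays lay wholly above wild type arrays for 24.2% of all genes when untreated, 15.8% at 6 days and 13.9% at 2 weeks. When each array in turn was left out, or another normalization or model was used, the 6-day difference ranged from 3.31 to 4.12 for C4b and from 1.81 to 2.10 for C4a. Without knockout 2 weeks replicate 1 and both 18-hour replicate 2 arrays, the 2-week difference of C4a was 0.16 and that of C4b 0.87.

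The change with time was averaged over the genotypes, which cancels a genotype difference that is the same at both times, and was compared over all genes with limma. At 6 days this average holds the knockout 6-day arrays for which C4b and C4a were chosen, so for these genes it is given with no test. C4b was higher than untreated by 1.67 ± 0.24 (SE) and C4a by 0.88 ± 0.14. The genotypes contributed unequally: C4b differed from untreated by 3.07 in knockout and 0.28 in wild type, and C4a by 1.61 and 0.16. When single arrays were left out, the averages ranged from 1.47 to 1.88 for C4b and from 0.81 to 0.95 for C4a. Of the 8 genes these 2 passed the threshold, against 0.687% of all genes called higher and 0.202% called lower (0.889% in either direction), a count from which nothing is read, and none of the other 6 passed. At 18 hours none of the 8 passed (C4b −0.01 ± 0.24, C4a −0.01 ± 0.14), as for all genes in limma (0%), of which 1266 had an unadjusted p under 0.05.

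At 2 weeks 3 of the 8 genes were higher than untreated when averaged over genotypes, against 5.1% of all genes called higher and 4.24% called lower (9.34% in either direction). C4b was higher by 1.04 ± 0.24 (adjusted p = 0.0286, limma) and C4a by 0.63 ± 0.14 (adjusted p = 0.0241, limma), and the median over all genes was 0.09. Within genotypes, with no test, C4b differed by 1.10 in wild type and 0.97 in knockout, and C4a by 0.70 and 0.57. The difference between these responses was −0.13 for each gene. Without knockout 2 weeks replicate 1 and both 18-hour replicate 2 arrays, the knockout values were 1.04 for C4b and 0.36 for C4a, and the differences between responses −0.06 and −0.34. The C4a arrays at 2 weeks all lay above the untreated arrays, which held in the higher direction for 7.08% of all genes, whereas wild type 2 weeks replicate 2 (7.19) lay below knockout untreated replicate 2 (7.30) for C4b.

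The 2-week calls depended on single arrays. C4b no longer passed without wild type untreated replicate 1 or 2, knockout untreated replicate 1 or 2, wild type 2 weeks replicate 2 or knockout 2 weeks replicate 2 (0.95 to 1.12, adjusted p from 0.05 to 0.0953, limma). C4a no longer passed without the first 5 of these (0.58 to 0.66, adjusted p from 0.0583 to 0.0949, limma).

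C4b and C4a varied together over the 16 arrays. Pearson's r was 0.977 and Spearman's rho 0.968, and C4a had the highest r to C4b of 30141 other genes. Without both knockout 6-day arrays, the 2 farthest from the median, r was 0.941 over 14 arrays, and within wild type and within knockout it was 0.934 and 0.973 (n = 8 each). A change of 1 unit in C4b went with 0.52 units in C4a. These correlations are a description, since the genes are near-identical paralogs and their probesets can read the same transcript, which was not tested.

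**Figure D2:**
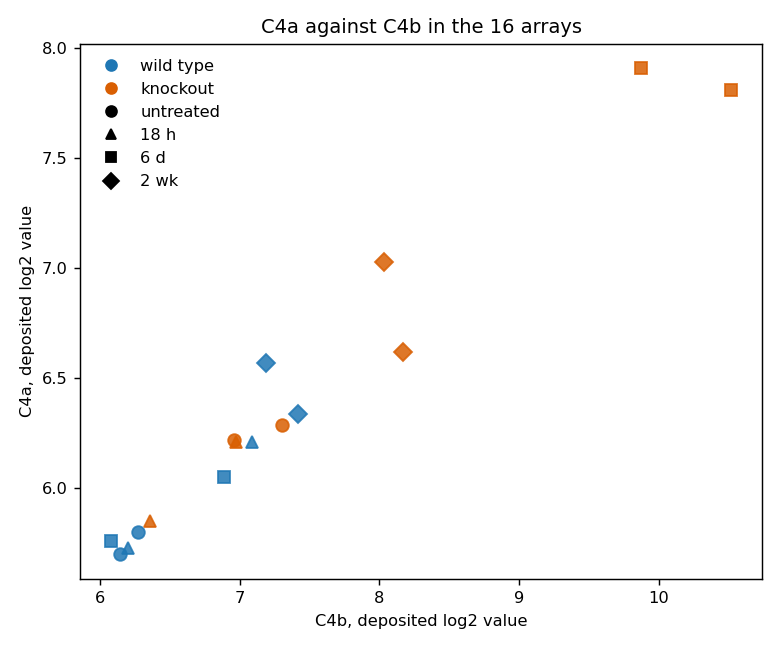
The deposited log2 value of C4a (y axis) against that of C4b (x axis) in the 16 arrays, with wild type in blue, knockout in orange and a symbol for each time. The arrays follow 1 line (Pearson's r of 0.977), with both knockout 6-day arrays at its upper end.

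Among genes whose values spanned at least 1 unit, the 5 outside the gene set with the highest r to C4b over 16 arrays were Sh3bp2 (0.919), Syt12 (0.889), Ugcg (0.884), Hbegf (0.874) and Eps8l3 (0.872). Ugcg encodes the enzyme that makes glucosylceramide, Hbegf encodes a ligand of the epidermal growth factor receptor, and Sh3bp2 encodes a signalling adaptor. The other measured members were less like C4b, with r of 0.343 for Cfb, 0.288 for C1qc, 0.0386 for C3ar1, 0.0234 for C1qa, −0.0941 for C1qb and −0.176 for C5ar1. C4b was 9.87 and 10.52 in the knockout 6-day arrays, far above its next highest value of 8.17. These arrays can therefore weigh heavily in each r, and r without them was obtained for C4a alone.

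C4b and C4a lie on chromosome 17 in the class III region of the major histocompatibility complex, with Cfb and C2 close by. The genotype difference was described for the 24 measured neighbours, taken as 10 genes on each side and the 4 between (Stk19-ps1, Skiv2l-ps1, Tnxa and Cyp21a1). The C4 pair was chosen for its 6-day difference, so its place among the neighbours is a description alone. At 6 days 0 of the 24 passed, where 0.00664% of all genes did, so nothing is read from that count. Of the 24, 8 were above zero, and their differences ran from −0.31 to 1.39 with a median of −0.04. The highest was Cfb, at 1.39 ± 0.43 (adjusted p = 0.919, limma), and C2 was at 0.00 ± 0.30. Averaged over genotypes, 0 of the 24 passed at 6 days, against 0.889% of all genes, and their median was −0.09. At 2 weeks 1 of the 24 was higher and 4 were lower, against 5.1% and 4.24% of all genes. The 4 were Tnxb, a matrix protein gene (−0.51 ± 0.08, adjusted p = 0.0123, limma), Tnxa (−0.42 ± 0.07, adjusted p = 0.013, limma), Neu1, a lysosomal sialidase gene (−0.97 ± 0.22, adjusted p = 0.025, limma), and Atf6b, a transcription factor gene (−0.39 ± 0.10, adjusted p = 0.0329, limma), and the higher one was Gm24389 (0.93 ± 0.18, adjusted p = 0.02, limma). None of these 5 calls held without wild type untreated replicate 2 or knockout untreated replicate 2 (adjusted p from 0.0526 for Tnxb to 0.109 for Atf6b, limma), and with the tubule covariate described next Neu1 (−0.46, adjusted p = 0.247, limma), Atf6b (−0.34, adjusted p = 0.169, limma) and Gm24389 (adjusted p = 0.0697, limma) did not pass, nor did these 3 with array weights. Neu1 and Atf6b were also lost without replicate 1 of either untreated group or wild type 2 weeks replicate 2, Atf6b without knockout 2 weeks replicate 2, and Gm24389 without knockout untreated replicate 1.

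**Figure D3:**
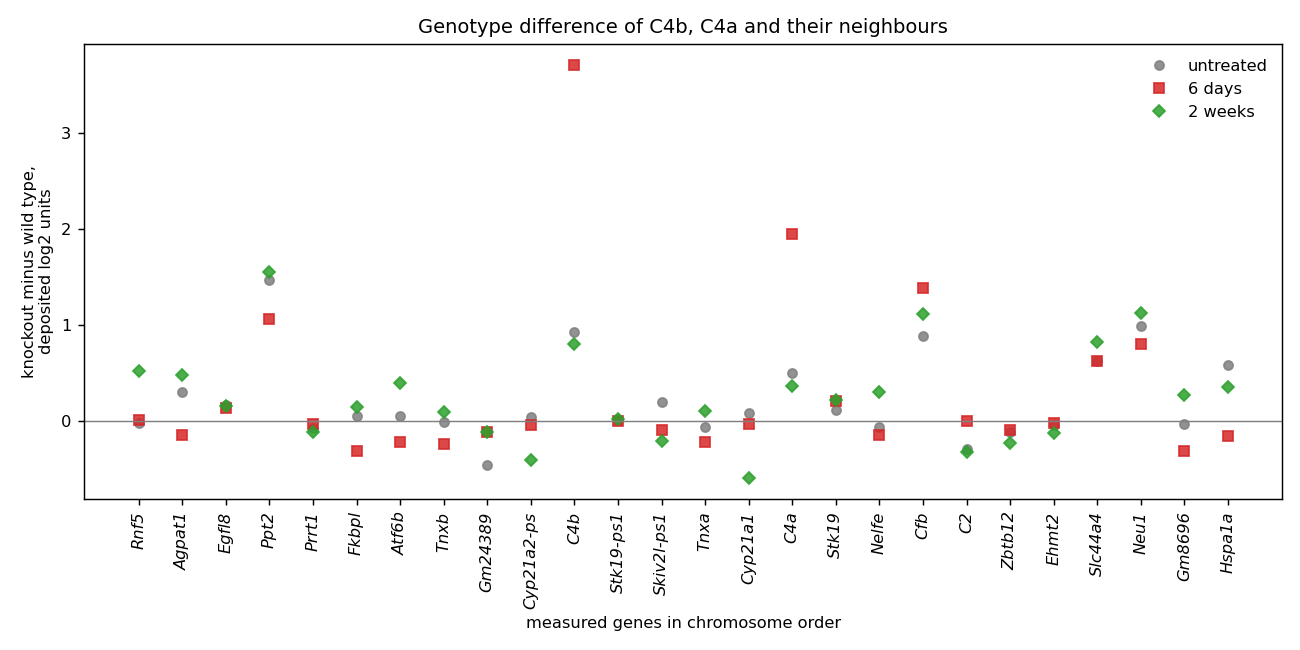
The knockout minus wild type difference in deposited log2 units (y axis) of C4b, C4a and their 24 measured neighbours in chromosome order (x axis), untreated (grey circles), at 6 days (red squares) and at 2 weeks (green diamonds). At 6 days C4b (3.71) and C4a (1.95), which were chosen for this difference, lie above every neighbour, of which Cfb (1.39) is the highest. Nothing is read from that order.

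C4b was set beside marker lists in each array. The mean of 9 male-biased kidney genes was 15.72 and 14.83 in the knockout 6-day arrays, in which C4b was highest, and 16.02 and 14.93 in the untreated knockout arrays, in which C4b was 6.96 and 7.30. At 18 hours C4b was higher in the array of each genotype with the higher male-biased mean: 7.09 against 6.20 in wild type and 6.97 against 6.36 in knockout. The mean of 5 tubule injury genes was 7.35 and 9.08 in the knockout 6-day arrays and 9.15 and 8.79 in the wild type 2-week arrays, in which C4b was 7.42 and 7.19. In the knockout 2-week arrays it was 5.81 and 8.82, while C4b was 8.03 and 8.17.

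The mean of 14 macrophage markers was 6.44 and 6.57 in the knockout 6-day arrays, in which C4b was highest. It was 6.82 and 6.77 in the wild type 6-day arrays, in which C4b was 6.08 and 6.89. With the mean of the proximal tubule markers minus that of the podocyte markers as a covariate, the 6-day difference averaged over genotypes was 1.66 for C4b and 1.05 for C4a. At 2 weeks the covariate left C4a at 0.94 (adjusted p = 0.0116, limma), while C4b, at 1.01, no longer passed (adjusted p = 0.141, limma). The part of the male-biased genes, the tubule injury genes and the macrophage markers in the C4 values was not tested.

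**Figure D4:**
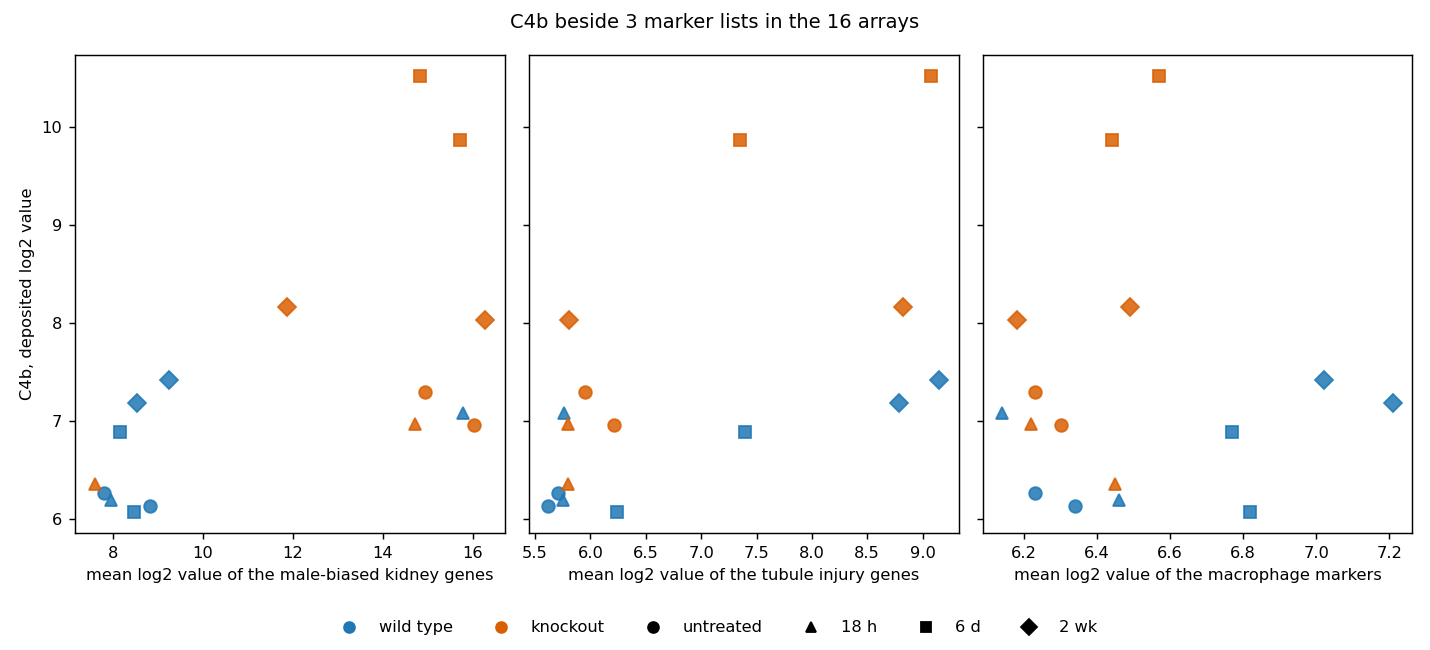
The deposited log2 value of C4b (y axis) against the mean of 9 male-biased kidney genes, 5 tubule injury genes and 14 macrophage markers (x axes, log2) in the 16 arrays, with wild type in blue, knockout in orange and a symbol for each time. Both knockout 6-day arrays have C4b above 9 units of log2 at macrophage means (6.44 and 6.57) within the range of arrays with low C4b.

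The 3 C1q chain genes, C1qa, C1qb and C1qc, lie side by side on chromosome 4 and encode the antibody-binding recognition unit of the classical pathway, made mainly by macrophages. RefSeq holds the 250 bases before the start of C1qb and C1qc, which are shown because C1qc passed a test in these data and C1qb, whose product it joins, did not. The promoter of C3ar1, the other gene that passed in wild type at 2 weeks, is shown with them. All are on the minus strand of GRCm38.p6 and are written 5′ to 3′ in the direction of transcription: C1qb at chr4:136886201-136886450, C1qc at chr4:136892915-136893164 and C3ar1 at chr6:122856158-122856407. Capitals mark GAGGAA, the core letters of the motif of PU.1, a myeloid transcription factor, searched on both strands (as TTCCTC when on the other strand).
C1qb: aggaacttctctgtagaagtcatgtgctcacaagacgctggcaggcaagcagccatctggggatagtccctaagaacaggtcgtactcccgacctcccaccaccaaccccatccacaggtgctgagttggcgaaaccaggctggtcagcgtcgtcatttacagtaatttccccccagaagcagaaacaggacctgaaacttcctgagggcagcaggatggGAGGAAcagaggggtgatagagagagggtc
C1qc: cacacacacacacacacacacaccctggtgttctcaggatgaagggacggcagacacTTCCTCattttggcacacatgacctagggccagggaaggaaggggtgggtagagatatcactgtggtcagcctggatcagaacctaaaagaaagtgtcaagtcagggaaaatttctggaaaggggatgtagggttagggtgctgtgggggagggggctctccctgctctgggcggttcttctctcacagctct
C3ar1: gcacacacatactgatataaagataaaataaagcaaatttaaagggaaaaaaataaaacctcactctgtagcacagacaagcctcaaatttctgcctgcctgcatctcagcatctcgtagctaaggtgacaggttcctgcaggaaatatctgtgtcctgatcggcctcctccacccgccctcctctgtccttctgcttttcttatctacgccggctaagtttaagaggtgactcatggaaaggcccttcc
GAGGAA stands 30 bases before the start of C1qb and, on the opposite strand, 193 bases before that of C1qc, and is not in the C3ar1 window. Of 32851 promoters of the same length 23.3% hold it, so a match is common and is a description alone. TTCNNNGAA, a palindromic motif of STAT factors, is in none of the 3 windows and in 7.02% of all promoters.

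C1qa stood at 6.13 and 6.20 untreated, 6.40 and 6.13 at 18 hours, 6.41 and 6.29 at 6 days and 6.65 and 5.97 at 2 weeks in wild type. In knockout the values were 6.50 and 6.20, 6.30 and 5.82, 6.38 and 6.05, and 6.35 and 6.38. All values lay between 5.82 and 6.65 with no group apart from the rest, and the widest gap within a group was in wild type at 2 weeks. Averaged over genotypes, C1qa differed from untreated by 0.03 at 6 days and by 0.08 ± 0.16 at 2 weeks (adjusted p = 0.732, limma).

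C1qb stood at 5.57 and 5.74 untreated, 5.95 and 5.69 at 18 hours, 5.63 and 6.27 at 6 days and 6.37 and 5.64 at 2 weeks in wild type. Its knockout values were 5.66 and 5.72, 5.56 and 5.67, 5.73 and 5.57, and 5.25 and 6.06. The 2 arrays of a group differed most at 2 weeks in both genotypes, and the time groups overlapped. The 2-week difference averaged over genotypes was 0.16 ± 0.21 (adjusted p = 0.61, limma).

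C1qc was the one C1q gene that passed a test, at 2 weeks. Its wild type values were 5.04 and 5.29 untreated, 5.32 and 5.23 at 18 hours, 5.30 and 5.25 at 6 days and 5.64 and 5.52 at 2 weeks. In knockout it stood at 5.45 and 5.32, 5.30 and 5.20, 5.41 and 5.25, and 5.59 and 5.52. All 4 of its 2-week arrays lay above all 4 untreated arrays, as was so for 7.08% of all genes.

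The C1qc difference at 2 weeks was 0.29 ± 0.08 averaged over genotypes (adjusted p = 0.0436, limma) and 0.41 ± 0.11 in wild type (adjusted p = 0.0463, limma), and 0.17 ± 0.11 in knockout did not pass (adjusted p = 0.717, limma). Array medians were higher than untreated by 0.16 at 2 weeks averaged over genotypes and by 0.21 in wild type, and with each array centred on its median C1qc was at 0.13 (adjusted p = 0.324, limma) and 0.20 (adjusted p = 0.284, limma). The averaged call was lost when any 1 array was left out except wild type 2 weeks replicate 1 (0.22 to 0.35, adjusted p from 0.0536 to 0.159, limma). The wild type call was lost when any 1 array was left out except knockout 2 weeks replicate 1 or 2 (0.28 to 0.54, adjusted p from 0.0599 to 0.248, limma).

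The C1q genes were only loosely alike over the 16 arrays, with r of 0.551 for C1qa and C1qc, 0.418 for C1qa and C1qb and 0.207 for C1qb and C1qc, in values that spanned 0.83, 1.13 and 0.60 units for C1qa, C1qb and C1qc. The 5 genes outside the set most like C1qa, among those spanning at least 1 unit, were Orly (0.704), Ufsp1 (0.66), H2al1k (0.652), Slc25a30 (0.557) and Mal2 (0.555).

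Cfb, the gene for factor B of the alternative pathway, had its lowest values in wild type at 2 weeks. In wild type it stood at 13.02 and 13.89 untreated, 13.69 and 14.19 at 18 hours, 12.63 and 12.85 at 6 days and 12.41 and 12.49 at 2 weeks. In knockout it stood at 14.41 and 14.28 untreated, 13.58 and 13.05 at 18 hours, 14.23 and 14.03 at 6 days and 14.31 and 12.82 at 2 weeks. Knockout arrays lay above wild type arrays when untreated, at 6 days and at 2 weeks, as they did for 24.2%, 15.8% and 13.9% of all genes. At 18 hours the replicate 1 arrays were close (13.69 in wild type and 13.58 in knockout), and the replicate 2 arrays, which went against their labels, stood at 14.19 and 13.05. The 2 knockout arrays at 2 weeks lay far apart.

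The change of Cfb with time did not pass. It was −0.46 ± 0.31 at 6 days (adjusted p = 0.656, limma) and −0.89 ± 0.31 at 2 weeks (adjusted p = 0.0865, limma) averaged over genotypes, and at 2 weeks −0.78 ± 0.43 in knockout (adjusted p = 0.665, limma). In wild type the mean was 13.46 untreated and 12.45 at 2 weeks, a difference with an SE of 0.43 (adjusted p = 0.146, limma). Without knockout 2 weeks replicate 1, the array with low tubule injury genes, the 2-week difference was −1.26 averaged over genotypes and −1.52 in knockout. That omission leaves 1 array in the group, so no p is given. With each array centred on its median the averaged 2-week difference passed at −1.05 (adjusted p = 0.0392, limma). Proximal tubule markers were set beside it. Their mean was 13.58 and 14.66 in the wild type 2-week arrays and 14.36 in knockout 2 weeks replicate 2. It was 15.79 to 16.37 in untreated arrays of both genotypes and 15.90 in knockout 2 weeks replicate 1. In the wild type 6-day arrays it was 15.71 and 15.35, with Cfb at 12.63 and 12.85. In the knockout 6-day arrays it was 16.03 and 15.38, with Cfb at 14.23 and 14.03. With the tubule minus podocyte covariate the 2-week difference of Cfb averaged over genotypes was 0.02 (adjusted p = 0.956, limma). Whether tubule content set the Cfb values was not tested.

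C3ar1, the gene for the C3a receptor, found on myeloid cells, was highest in wild type at 2 weeks. In wild type it stood at 4.19 and 4.57 untreated, 4.43 and 4.44 at 18 hours, 4.30 and 4.63 at 6 days and 4.99 and 5.23 at 2 weeks. In knockout it stood at 4.70 and 4.30, 4.38 and 4.45, 4.49 and 4.44, and 4.43 and 4.40. Both wild type 2-week arrays lay above all other arrays, and the knockout arrays at 2 weeks lay within the range of the untreated ones. A wild type 2-week pair lying above the untreated wild type pair was common, at 39.1% of all genes.

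In wild type at 2 weeks 2 of the 6 tested members passed, C3ar1 and C1qc, both higher, against 4.81% of all genes called higher and 3.23% called lower (8.04% in either direction) and a median over all genes of 0.13. C3ar1 rose by 0.73 ± 0.16 (adjusted p = 0.0287, limma). In knockout 0 of the 6 passed at 2 weeks, where 0.109% of all genes did and 2488 had an unadjusted p under 0.05 in limma, and C3ar1 was at −0.09 ± 0.16 (adjusted p = 0.938, limma). The difference between the 2 responses, −0.82 ± 0.23, did not pass (adjusted p = 0.639, limma), so the responses are not shown to differ. The wild type call was lost without wild type untreated replicate 1 (0.54, adjusted p = 0.17, limma), wild type untreated replicate 2 (0.92, adjusted p = 0.0957, limma) or wild type 2 weeks replicate 2 (0.61, adjusted p = 0.131, limma). It was also lost with each array centred on its median (0.52, adjusted p = 0.058, limma) and with the tubule minus podocyte covariate (0.92, adjusted p = 0.0619, limma).

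C5ar1, the gene for the C5a receptor on neutrophils and macrophages, had its 3 highest values in wild type arrays at 6 days and 2 weeks. In wild type it stood at 4.02 and 4.19 untreated, 4.20 and 4.28 at 18 hours, 4.57 and 4.25 at 6 days and 4.40 and 4.77 at 2 weeks. In knockout it stood at 4.32 and 4.10, 3.98 and 4.34, 4.15 and 4.14, and 4.24 and 4.31. The wild type 2-week arrays lay above every untreated array of both genotypes, and the knockout 2-week arrays did not. A wild type 2-week pair above the untreated wild type pair was common, at 39.1% of all genes. The difference between the genotypes' 2-week responses, −0.42 ± 0.23, did not pass (adjusted p = 0.679, limma), so the responses are not shown to differ. At 2 weeks C5ar1 differed from untreated by 0.48 ± 0.16 in wild type (adjusted p = 0.0832, limma) and, averaged over genotypes, by 0.27 ± 0.11 (adjusted p = 0.142, limma). Without wild type 2 weeks replicate 1 it was at 0.66 in wild type and at 0.36 on average. That omission leaves 1 array in the group, so no p is given.

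Macrophage markers were set beside these receptors. The mean of the 14 markers was highest in the wild type 2-week arrays, 7.02 and 7.21. It was 6.34 and 6.23 in untreated wild type arrays and 6.18 and 6.49 in the knockout 2-week arrays. In the wild type 6-day arrays it was 6.82 and 6.77, with C3ar1 at 4.30 and 4.63. Of the 14 markers 9 rose in wild type at 2 weeks (median 0.78), against 4.81% of all genes. In knockout 0 of the 14 passed, where 0.109% of all genes did, and the difference between the responses passed for 0 of the 14. The list was chosen with earlier results of these data known, so nothing is read from these counts. The mean of 10 neutrophil markers was 5.35 and 5.54 in the wild type 2-week arrays and 5.20 and 5.16 in untreated wild type arrays. In wild type at 2 weeks 0 of the 10 passed, against 8.04% of all genes. Their part in the C3ar1 and C5ar1 values was not tested. At 6 days 0 of the 6 members passed in wild type, where no gene did in limma (0%, 2106 at an unadjusted p under 0.05), and 0 of the 6 passed in knockout (0.0133% of all genes, 2250 at an unadjusted p under 0.05).

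The genotypes were compared directly for the 6 members other than C4b and C4a, and none passed in any of the comparisons. The arrays that resembled the genotype opposite to their label were kept. They entered the average over times and the spread behind every test and interval here. Of 9 male-biased kidney genes 0 were called, though their median difference was 6.85 untreated and 4.57 averaged over times. A missed threshold here therefore does not show that the genotypes were alike. Averaged over the 4 times, limma called 0 genes of all tested (0%; 3514 had an unadjusted p under 0.05). Cfb was higher in knockout by 0.69 ± 0.22 (adjusted p = 0.288, limma; 95% interval 0.21 to 1.17 before adjustment over genes). For the other 5 the intervals held zero: −0.27 to 0.21 for C1qa, −0.53 to 0.13 for C1qb, −0.07 to 0.19 for C1qc, −0.33 to 0.03 for C3ar1 and −0.32 to 0.04 for C5ar1. Without knockout 2 weeks replicate 2, in which Cfb was lowest of the knockout arrays, the Cfb difference was 0.88. That omission leaves 1 array in the group, so no p is given.

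At single times the genotype difference of Cfb was 0.89 ± 0.43 untreated (adjusted p = 0.983, limma), 1.39 ± 0.43 at 6 days (adjusted p = 0.919, limma) and 1.12 ± 0.43 at 2 weeks (adjusted p = 0.208, limma). When untreated, limma called 0 genes (0%; 1564 at an unadjusted p under 0.05). At 2 weeks 0.182% of all genes passed (0.0365% higher and 0.146% lower) and 5841 had an unadjusted p under 0.05, and C3ar1 was at −0.70 ± 0.16 (adjusted p = 0.107, limma) and C5ar1 at −0.31 ± 0.16 (adjusted p = 0.301, limma). Without knockout 2 weeks replicate 2 the 2-week difference was 1.86 for Cfb and −0.68 for C3ar1. Without wild type 2 weeks replicate 1 that of C3ar1 was −0.82. Each omission leaves 1 array in a group, so no p is given. The difference between the genotypes' responses passed for 0 of the 6 at 6 days and at 2 weeks, as for all genes in limma (0% each; 395 and 2244 at an unadjusted p under 0.05).

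The other 39 measured complement genes were grouped by role. Averaged over genotypes, 0 of the 39 passed at 6 days, against 0.889% of all genes. At 2 weeks 6 were higher and 0 lower, against 5.1% and 4.24% of all genes. Above zero were 32 of the 39, with a median of 0.17 against 0.09 for all genes. The 6 were Masp1, a protease of the lectin pathway, C6, a component of the membrane attack complex, Cfi, the protease that inactivates C3b and C4b, and Itgam, Itgax and Itgb2, the chains of complement receptors 3 and 4 on myeloid cells. The same 6 passed in wild type at 2 weeks, where 4.81% of all genes were called higher, and 0 passed in knockout (0.109% of all genes). The difference between the genotypes' 2-week responses passed for none of them, with the smallest adjusted p for Itgax (0.472, limma).

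Of the 9 receptor genes, C3ar1 and C5ar1 included, 3 rose at 2 weeks averaged over genotypes and 4 rose in wild type. Of all genes 5.1% and 4.81% were called higher in these comparisons. Itgax stood at 6.04 and 6.09 in untreated and 6.93 and 7.36 in 2-week wild type arrays, and at 6.21 and 6.02, then 6.15 and 6.21, in knockout. It rose by 0.57 ± 0.09 on average (adjusted p = 0.013, limma) and by 1.08 ± 0.13 in wild type (adjusted p = 0.00596, limma), and was lower in knockout than in wild type at 2 weeks by −0.96 ± 0.13 (adjusted p = 0.0299, limma), the 1 of the 39 that passed there, against 0.182% of all genes. That call was lost with array weights (adjusted p = 0.854, limma), with the tubule covariate (adjusted p = 0.111, limma), without both 18-hour replicate 2 arrays (adjusted p = 0.0799, limma) and when any 1 array was left out except wild type 2 weeks replicate 1 or knockout 2 weeks replicate 2 (−0.75 to −0.96, adjusted p from 0.0547 to 0.221, limma). Itgam rose by 1.20 ± 0.20 in wild type (adjusted p = 0.0128, limma) and by 0.75 ± 0.14 on average (adjusted p = 0.0167, limma). Itgb2, the beta chain they share, rose by 0.92 ± 0.19 in wild type (adjusted p = 0.0221, limma) and by 0.53 ± 0.13 on average (adjusted p = 0.035, limma). In all 3 the wild type 2-week arrays lay above the untreated wild type arrays, as in 39.1% of all genes.

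Of the 8 lectin pathway genes, 1 rose at 2 weeks, both averaged over genotypes and in wild type. Of all genes 5.1% and 4.81% were called higher there, so nothing is read from the count. Masp1 stood at 5.26 and 5.27 untreated and 6.07 and 6.58 at 2 weeks in wild type, and at 5.15 and 5.16, then 5.12 and 5.73, in knockout. It rose by 1.06 ± 0.19 in wild type (adjusted p = 0.0161, limma) and by 0.66 ± 0.13 on average (adjusted p = 0.0205, limma). Mbl2, a mannose-binding lectin, was at 0.44 ± 0.14 in wild type (adjusted p = 0.0788, limma). Of the 13 measured regulators, 1 rose, against the same shares of all genes, and nothing is read from that count either. Cfi stood at 6.01 and 6.57 untreated and 7.38 and 7.83 at 2 weeks in wild type. It rose by 1.32 ± 0.27 (adjusted p = 0.0229, limma) in wild type, and averaged 0.75 ± 0.19 (adjusted p = 0.0374, limma). Clu, clusterin, an inhibitor of the membrane attack complex, was at 1.79 ± 0.85 in wild type (adjusted p = 0.178, limma), with 14.54 in wild type 2 weeks replicate 1 and 12.32 in replicate 2.

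Of the 7 terminal pathway genes, 1 rose at 2 weeks, against 5.1% of all genes called higher on average and 4.81% in wild type. Nothing is read from that count. C6 was higher by 0.49 ± 0.11 in wild type (adjusted p = 0.0269, limma) and by 0.33 ± 0.08 on average (adjusted p = 0.0283, limma). C7 was at 0.90 ± 0.26 on average (adjusted p = 0.0548, limma), and C8a at −2.35 ± 0.77 (adjusted p = 0.0762, limma), with values from 6.73 to 12.59 over the wild type arrays. Of the classical pathway genes outside the set, C1ra, the protease that C1q activates, was at 0.85 ± 0.27 in wild type (adjusted p = 0.0733, limma) and C2, the partner of C4 in the C3-cleaving enzyme, at −0.53 ± 0.22 on average (adjusted p = 0.129, limma). Cfp, properdin, which stabilises the alternative pathway enzyme, was at 0.47 ± 0.15 in wild type (adjusted p = 0.0769, limma).

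The 6 averaged calls were lost in several ways. Counts over all genes also moved widely when single arrays were left out, so such losses are not particular to these genes. Without wild type untreated replicate 2 or knockout untreated replicate 2 all 6 were lost, and without replicate 1 of either all but Itgax were lost. C6 and Itgb2 were also lost without knockout 2 weeks replicate 2, Itgb2 without wild type 2 weeks replicate 2, and Cfi without either of these or any 1 of the 18-hour arrays (Cfi 0.61 to 0.89, adjusted p from 0.0523 to 0.117, limma). Over these omissions the adjusted p ran from 0.0503 for Itgam to 0.127 for Itgb2, and Itgb2 was at 0.43 to 0.55. Quantile normalization also ended the calls of Masp1 (0.51, adjusted p = 0.0548, limma), C6 (0.17, adjusted p = 0.0839, limma), Cfi (0.63, adjusted p = 0.0773, limma) and Itgb2 (0.38, adjusted p = 0.096, limma). With each array centred on its median C6 (0.16), Cfi (0.59) and Itgb2 (0.36) did not pass, nor did they with array weights. All 6 wild type calls were lost without wild type untreated replicate 1 or 2 (adjusted p from 0.0563 for Itgax to 0.143 for C6, limma), and all but Itgax without wild type 2 weeks replicate 2 (C6 at 0.33, adjusted p = 0.0945, limma).

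Of the 12 measured interferon gamma response genes 9 rose in wild type at 2 weeks, against 4.81% of all genes. In knockout 0 passed, where 0.109% of all genes did, and the difference between the responses passed for 0 of the 12. This list too was chosen with earlier results of these data known, so nothing is read from these counts. The mean of these genes was highest in the wild type 2-week arrays (7.56 and 7.08). With the tubule minus podocyte covariate none of the 6 averaged differences passed (adjusted p from 0.0505 for Itgax to 0.334 for Itgb2, limma). The differences themselves were 0.57 for Itgax, 0.35 for C6, 0.59 for Cfi, 0.52 for Itgam, 0.44 for Masp1 and 0.27 for Itgb2. The part of the interferon gamma response genes and macrophage markers in these values was not tested.

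**Figure D5:**
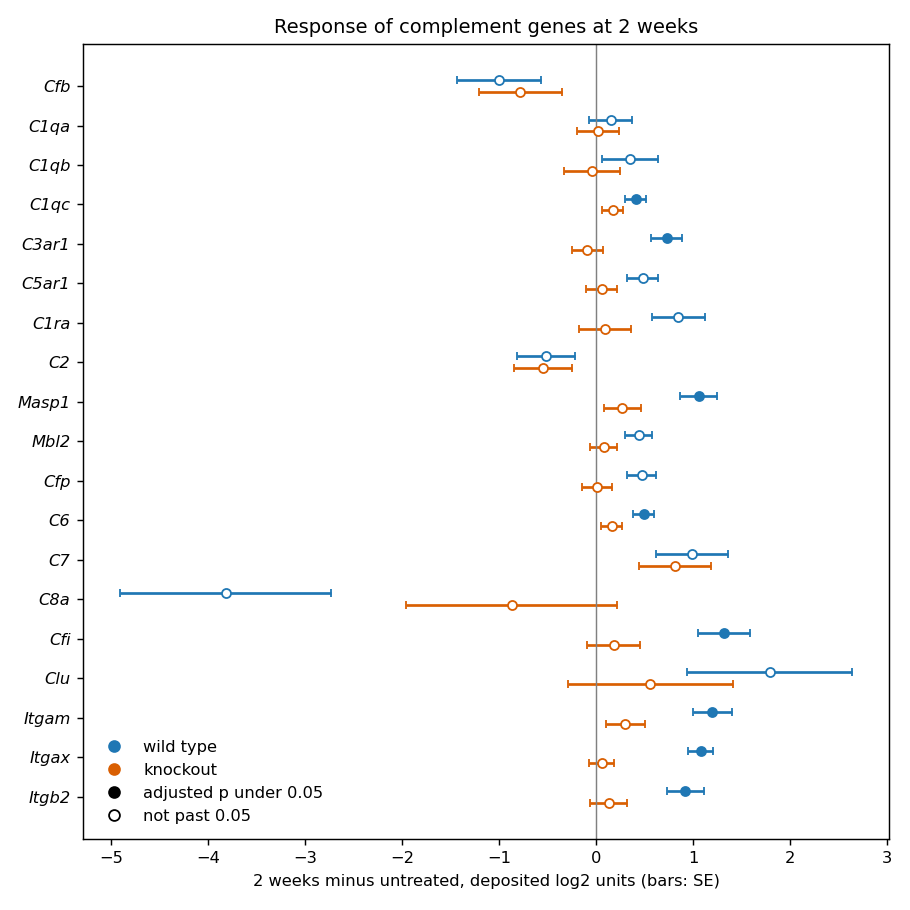
The 2 weeks minus untreated difference in deposited log2 units (x axis, bars SE) of 6 members and 13 other complement genes (y axis) in wild type (blue) and knockout (orange), filled where the adjusted p was under 0.05. In wild type 8 of the genes are filled, among them Itgax (1.08) and C3ar1 (0.73), and in knockout none is. The 13 were picked because they passed or had the largest 2-week changes of their role, so nothing is read from the count. Of all genes 8.04% passed in wild type and 0.109% in knockout.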

How the data were processed

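RNA of 16 glomerular extracts, amplified from 10 ng with a Pico kit per the labels, was measured on 16 arrays. The authors deposited log2 values for 72688 probesets, summarised before deposit. Affymetrix Expression Console and Transcriptome Analysis Console are named per the submitters' processing notes, with no version, summarisation method or annotation build given in the sources used here. Background correction and normalization cannot be checked from such a table, and their effect on dim probesets is unknown. The number of arrays limits the precision.

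Probesets with exactly 1 symbol (30604) were used, and those with several (2146) or none (39938) were left out. Entrez identifiers gave 827 probesets a newer symbol, and 30294 were found in the RefSeq gene table. Of a gene's probesets the one with the highest mean was kept (355 genes had over 1), which left 30142 genes with no filter on brightness. The mean of C1qb, C1qc, C3ar1 and C5ar1 lay below that of the median gene (46.5, 39.6, 18.7 and 10.9 as percentiles). Promoters came from the RefSeq table of GRCm38.p6.

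With limma 3.58.1 in R 4.3.3, 1 model of 8 group means was fitted per gene to the 16 arrays (8 residual degrees of freedom), with an intensity trend. Adjustment was by Benjamini-Hochberg over all genes, separately for every comparison, and a gene passed at an adjusted p under 0.05. The times were compared with untreated averaged over genotypes, with no p given for C4b and C4a at 6 days, when the average holds the arrays they were chosen on. Comparisons that contain the genotype difference were tested for the 6 members other than C4b and C4a. Intervals are 95% intervals of the moderated fit. On simulated data the 2-week comparison averaged over genotypes recovered 71.6%, 94% and 100% of genes changed by 1, 2 and 4 units with 10 false calls, and that in wild type 50.7%, 89.6% and 98.5% with 11. These shares do not carry over to the genotype comparisons. There 0 of 9 male-biased kidney genes were called at a median untreated difference of 6.85. Recovery in the arrays can also be lower, since C8a did not pass at −2.35 at 2 weeks averaged over genotypes.

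The members and all lists were chosen with earlier results of these data known. By the rule, the text names the members, other complement genes that passed or had the 2 largest 2-week changes of their role, neighbours of C4 that passed, with C2 and Cfb, and the 5 genes most like C4b and C1qa. Single marker genes, Esr1 and Havcr1, were named where a result turned on them. Alternatives changed the normalization, the dim-gene filter, the probeset rule, the variance trend, array weights, a replicate block and a tubule covariate, or left out arrays. The replicate numbers did not pair the arrays: of 28 pairs of groups, 11 had a correlation of same-numbered deviations over 0.1 (range −0.679 to 0.593).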

Additional observations from a re-analysis of the deposited data

How the results depend on the processing

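Of 2594 alternative values of 102 single-gene results, 2380 stayed on the same side of the threshold, 200 lost a call and 14 gained one. No called value changed sign, but 102 values that passed neither way did, among them Cfb with the tubule covariate (0.02 at 2 weeks averaged over genotypes and 0.14 in wild type). At 2 weeks averaged over genotypes 3 members passed, against 0 with quantile normalization, 0 with array weights, 1 with the tubule covariate and 0 to 4 leaving out single arrays. At 6 days 2 passed, the C4 genes chosen on these arrays, against 0 to 2 leaving out single arrays. In wild type at 2 weeks 2 passed, against 0 with quantile normalization, median centring, array weights, the tubule covariate or without both 18-hour replicate 2 arrays, 0 with dim genes left out, a filter that removes both genes before testing, 1 without the intensity trend, 1 with the replicate block, and 0 to 3 leaving out single arrays. In knockout at 2 weeks 0 passed, against 1 (Cfb) without both 18-hour replicate 2 arrays and knockout 2 weeks replicate 1, and 0 to 1 leaving out single arrays. Leaving out single arrays gave 0 to 1 for knockout minus wild type averaged over times and 0 to 2 at 2 weeks. The replicate block, whose numbers did not pair the arrays, moved no other member count. C4b at 2 weeks was lost with quantile normalization (0.93, adjusted p = 0.0501, limma), as was C4a (0.49, adjusted p = 0.0644, limma), and both with array weights (adjusted p = 0.12 and 0.0748, limma). The cause of these changes was not tested. Counts over all genes moved more: from 268 to between 0 and 1946 at 6 days and from 2815 to between 100 and 7016 at 2 weeks averaged over genotypes, from 2424 to between 0 and 7438 in wild type and from 33 to between 2 and 1598 in knockout at 2 weeks. For knockout minus wild type they moved from 0 to up to 2196 averaged over times and from 55 to between 0 and 5331 at 2 weeks. With 2 arrays a group, a missed threshold does not show that values were alike.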
